A study of Homo sapiens with 6 samples.

Results

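The keratins examined were KRT5, KRT7, KRT8, KRT10, KRT17, KRT18, KRT19, KRT20, KRT74 and KRT80, a list of 10 genes taken by symbol from 61552 genes in the files. They were followed in NCI-H520, an established line of human lung squamous cell carcinoma cells labelled as wild type, exposed for 48 h either to phosphate-buffered saline (PBS) or to 2 µM cisplatin, a platinum compound that forms crosslinks in DNA. There were 3 libraries of total RNA per group, and no other allele or agent is named in the labels. All libraries come from 1 cell line, and whether replicates were separate cultures is not said in the labels. The p-values therefore reflect the variation among these libraries alone, and that variation may be technical.

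Keratins are the intermediate filament proteins of epithelial cells. A filament forms only when an acidic type I keratin pairs with a basic type II keratin, and which pair a cell makes marks its kind of epithelium. KRT8 and KRT18, often with KRT7, KRT19 or KRT20, belong to single-layered (simple) epithelia, whereas KRT5 with its type I partners, and KRT17, belong to the basal layer of stratified epithelia and are used in pathology to recognise squamous carcinoma. KRT10 is made by the differentiating layers above the basal one, KRT74 is known from the inner root sheath of the hair follicle, and KRT80 is found near desmosomes. Of the 10 genes, 5 are of type I (KRT10, KRT17, KRT18, KRT19, KRT20) and 5 of type II. The type II genes and KRT18 lie on chromosome 12, and the other type I genes on chromosome 17.

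The members are relatives in sequence, which bears on how well their reads can be told apart. Coding sequences of the same type were identical at a median of 68.4% of aligned bases (62.6% to 76.4% over 20 pairs, the highest between KRT7 and KRT8), and those of different types at 64.0% (60% to 68.2% over 25 pairs). The stretch of 45 coding bases in which the 5 type I genes are most alike is printed 5′ to 3′ from GENCODE 29 transcripts on GRCh38, to show how near these relatives come to each other, with capitals for the 29 bases identical in all 5.
KRT10 (chr17:40822096-40822140, minus strand): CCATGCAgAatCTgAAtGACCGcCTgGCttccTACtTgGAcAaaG
KRT17 (chr17:41624206-41624250, minus strand): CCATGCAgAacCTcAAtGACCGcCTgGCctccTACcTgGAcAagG
KRT18 (chr12:52949421-52949465, plus strand): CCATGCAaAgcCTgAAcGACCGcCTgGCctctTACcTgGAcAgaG
KRT19 (chr17:41527956-41528000, minus strand): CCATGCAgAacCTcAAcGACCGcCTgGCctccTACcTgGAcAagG
KRT20 (chr17:40884924-40884968, minus strand): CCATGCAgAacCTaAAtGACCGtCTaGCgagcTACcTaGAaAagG
Lower-case bases differ in at least 1 of the 5 genes. The stretch starts at base 248 of the coding sequence in both KRT18 and KRT19.

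NCI-H520 cells held mRNA of the simple keratins in quantity and of the basal ones hardly at all. In TPM, a level per transcript length scaled to the same total in every library, KRT8, KRT18 and KRT19 together made up 99.2% to 99.3% of the members' mRNA in each of the 6 libraries. Under cisplatin these abundant keratins stood 1.21-fold to 1.31-fold higher in edgeR's fit to counts. In mean TPM the folds were 1.23 for KRT8, 1.13 for KRT18 and 1.17 for KRT19. The sparse simple keratin KRT20 and the inner root sheath keratin KRT74 rose 3.40-fold and 2.14-fold in the fit to counts, and 3.11-fold and 2.01-fold in mean TPM. KRT18 and KRT74 were not called by limma on TPM. The basal KRT5 and the suprabasal KRT10 did not pass edgeR's test. Of the 10 members, 7 passed the filter on low counts, and 5 of these were called higher and 0 lower (edgeR's quasi-likelihood test, Benjamini-Hochberg adjusted p under 0.05). The background is high: over all 15063 genes tested, 38.2% were called in either direction, 18.9% higher and 19.3% lower. KRT20 passed the filter through its level in the cisplatin libraries, so the count of called members is given as a description. In bulk RNA, a change in the number of cells that make a keratin and a change in its RNA per cell cannot be told apart.

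**Figure D1:**
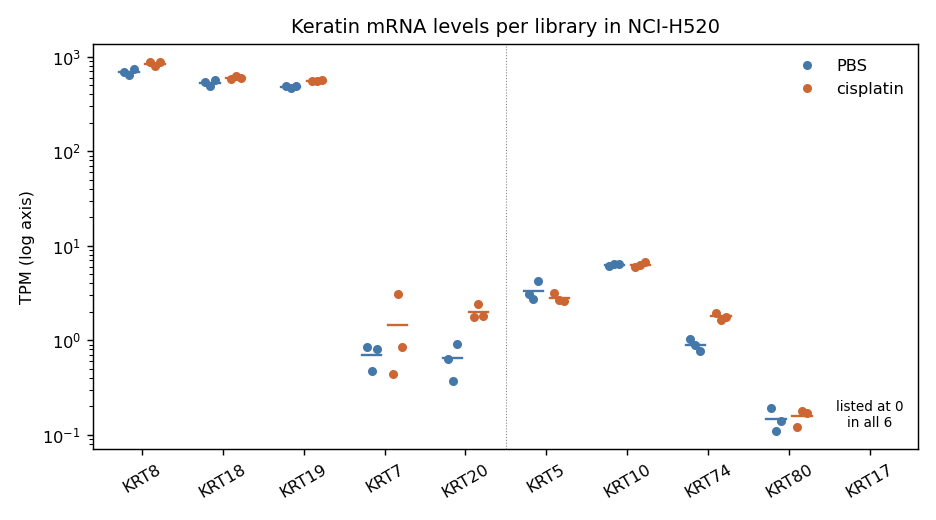
TPM on a log axis for each keratin in each library, with PBS in blue, cisplatin in orange and a short line at the mean of 3. Left of the dotted line are the simple keratins, right of it the others; KRT8, KRT18 and KRT19 lie between 462 and 869 TPM, all other members under 7 TPM, and KRT17 is listed at 0.

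Library totals ran from 9121180 to 16724285 expected counts, the estimated reads per gene. Mitochondrially encoded genes took 4.15% to 6.05% of counts under PBS and 3.26% to 4.13% under cisplatin. Of the other markers of squamous lung carcinoma, SOX2 stood at 156 ± 23.8 TPM under PBS (SD, n = 3), but TP63 had at most 3 counts in any library, and DSG3 and CLCA2 had 0 in all 6. The general epithelial marker EPCAM stood at 464 ± 65.7 TPM under PBS. Of the 11 squamous markers 6 were tested, and TRIM29 (log2 fold change 1.29), S100A2 (1.43) and SERPINB5 (1.33) rose while 0 fell. The list's median was 0.77, and of all genes tested 18.9% were called higher and 19.3% lower. S100A2 and SERPINB5, at 6 to 15 and 6 to 13 counts under PBS, passed the filter through the cisplatin libraries. The list summed to 163 to 194 TPM under PBS and 175 to 188 TPM under cisplatin, most of it SOX2. In PBS replicate 1 the sum includes 36.3 TPM of KRT6A, which rests on 15 counts and a short deposited length of 275 bases. Of 10 lung glandular markers 5 were tested, 2 rose and 1 fell, and the sum was 10.8 to 12.3 TPM under PBS and 15.1 to 20.1 TPM under cisplatin. The 7 neuroendocrine markers summed to 114 to 156 TPM under PBS and 154 to 160 TPM under cisplatin. Most of each sum was CHGB, and NEUROD1 stood at 0. Of 4 neuroendocrine markers tested, CHGB alone was called, 0.41 higher on the log2 scale (edgeR adjusted p = 0.00122). The other 3 leaned lower without a call: SYP (-0.55, edgeR adjusted p = 0.0967), INSM1 (-0.24) and NCAM1 (-0.06). The middle log2 value of the tested markers was -0.15. Markers of cells from outside epithelium were low: summed TPM was 5.66 to 6.67 under PBS and 7.31 to 8.89 under cisplatin for 9 fibroblast markers (COL3A1 at 0), 0.09 to 0.43 and 0.08 to 0.47 for 6 endothelial markers (TEK and ERG at 0), and 1.76 to 2.30 and 3.31 to 4.21 for 8 blood and immune markers (PTPRC, CD3E and HBB at 0). The part of these marker sums in the keratin differences was not tested.

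KRT8 (ENSG00000170421, chromosome 12, 52897187 to 52949954), the type II keratin of simple epithelium, was the most abundant member. Its level was 689, 640 and 734 TPM in PBS libraries 1 to 3 and 869, 796 and 868 TPM in the cisplatin libraries, and it ranked between 159 and 192 among all genes by TPM. All 3 cisplatin libraries lay above all 3 PBS libraries. In CPM, counts scaled to a common library size, it went from 896 ± 38.5 to 1170 ± 72.0 (SD, n = 3), which is 0.39 ± 0.08 on the log2 scale (SE, edgeR's adjusted p = 0.00198). It was called under each of the 18 alternative settings, with log2 fold changes from 0.29 to 0.44.

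KRT18 (ENSG00000111057, chromosome 12, 52948871 to 52952901), the type I partner of KRT8 and a known substrate of caspases in dying epithelial cells, stood at 539, 488 and 560 TPM under PBS and 580, 623 and 593 TPM under cisplatin. The groups did not overlap, but the highest PBS and the lowest cisplatin library were close. Its CPM went from 518 ± 33.8 to 629 ± 28.8 (SD, n = 3), a fold change of 1.21 with a 95% interval of 1.08 to 1.36 (log2 fold change 0.28, edgeR adjusted p = 0.0117). The call was lost in edgeR without cisplatin replicate 2 (adjusted p = 0.0525) and after removal of a trend on transcript length (0.14, adjusted p = 0.106), and in limma on log2(TPM + 1) (0.18, adjusted p = 0.139). In the annotation 16.3% of the exonic bases of KRT18 are shared with KRT8 on the opposite strand. No source at hand says whether counting used strand, so some reads of the pair could be exchanged.

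KRT19 (ENSG00000171345, chromosome 17, 41523617 to 41528308), a short type I keratin of simple and ductal epithelium whose fragments are measured in serum as a lung cancer marker, had 485, 462 and 487 TPM under PBS and 556, 549 and 570 TPM under cisplatin. Again every cisplatin library was above every PBS library, and the spread within each group was small. CPM were 450 ± 38.1 and 561 ± 25.3 (SD, n = 3), giving a fold change of 1.25 (95% interval 1.11 to 1.41, edgeR adjusted p = 0.00799). All 18 alternatives called it, but the length correction brought the log2 fold change from 0.32 to 0.17 (edgeR adjusted p = 0.0489), and limma on log2(TPM + 1) gave 0.22 (adjusted p = 0.0494).

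Such calls were common among abundant genes in general. Among the 2134 genes averaging 100 CPM or more, 50% were called in either direction and 22.2% were called higher. Non-overlapping groups in CPM were found for 49.7% of all genes tested, 25.2% with cisplatin higher, and for 5 of the 7 tested members, all with cisplatin higher. The order of the levels under PBS was KRT8 above KRT18 above KRT19. KRT8 exceeded the other pair in each library, while KRT18 (488 to 560 TPM) and KRT19 (462 to 487 TPM) were separated by little more than their spread. Within a library KRT18 was 1.04 to 1.15 times KRT19.

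**Figure D2:**
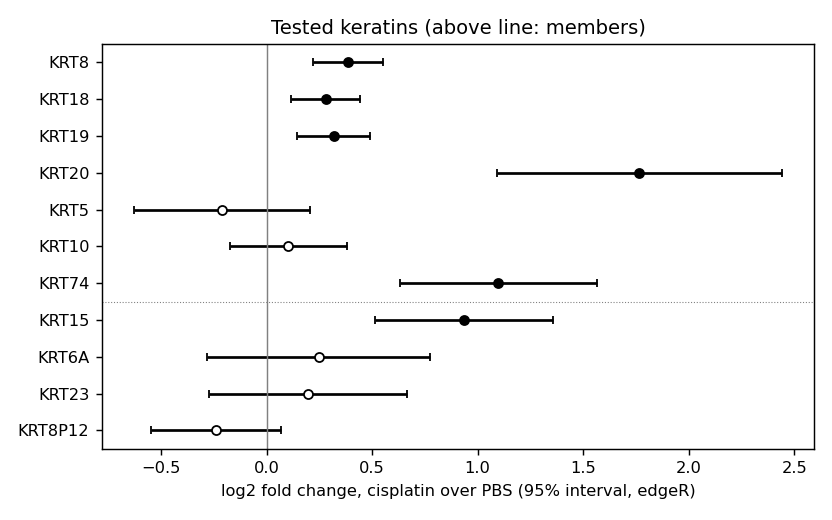
Log2 fold change of cisplatin over PBS from edgeR for the 7 tested members (above the dotted line) and for 3 other keratins and 1 pseudogene (below it), with 95% intervals. Filled points passed an adjusted p of 0.05; KRT8, KRT18 and KRT19 lie between 0.28 and 0.39, KRT15, KRT74 and KRT20 between 0.94 and 1.77, and the open points have intervals that include 0.

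KRT20 (ENSG00000171431, chromosome 17, 40875941 to 40885227), a simple keratin known from intestinal epithelium, urothelium and Merkel cells, was sparse. It had 8, 8 and 16 counts under PBS and 25, 39 and 44 under cisplatin, or 0.893, 0.526 and 1.12 CPM against 2.49, 3.47 and 2.64 CPM. The lowest cisplatin library was above the highest PBS library. The fold change was 3.40 (95% interval 2.13 to 5.44, log2 fold change 1.77 ± 0.31 SE, edgeR adjusted p = 0.00104), the largest among the 7 tested members. KRT20 passed the filter through the cisplatin libraries, so its rank and p-value are given as a description. Since its level is near 1 TPM, the pseudocount matters, and limma on log2(TPM + 1) gave 0.88 and on log2(TPM + 0.1) 1.56, both called (adjusted p = 0.0332 and 0.0374). At a mean of 2.00 TPM under cisplatin KRT20 remained far below the KRT19 level of 558 TPM.

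KRT7 (ENSG00000135480), a type II keratin of glandular and ductal epithelium, did not pass the low-count filter. Its counts were 7, 9 and 8 under PBS and 4, 11 and 18 under cisplatin, which overlap. Fitted without a filter, its log2 fold change was 0.43 (95% interval -0.49 to 1.36, edgeR adjusted p = 0.558). The deposited TPM of 3.08 in cisplatin replicate 2 rests on 11 counts and a deposited transcript length of 641 bases, against 1178 to 1625 bases in the other libraries, so its count is the better guide there.

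KRT5 (ENSG00000186081, chromosome 12, 52514575 to 52520687), the type II keratin of basal cells, had 3.06, 2.71 and 4.20 TPM under PBS and 3.17, 2.67 and 2.61 TPM under cisplatin. The groups overlapped, and its mean under PBS was 207-fold below that of KRT8. In edgeR its log2 fold change was -0.21 with a 95% interval of -0.63 to 0.21 (adjusted p = 0.416). As a fold, the interval runs from 0.648 to 1.15, so neither a fall nor a small rise of that size can be set aside. KRT17 (ENSG00000128422), a type I keratin of basal and wound-edge cells, had 0 counts in all 6 libraries. A count of 0 allows up to 3 counts, or 0.179 to 0.329 CPM of the library total. The gene tables do not show whether reads of KRT17 could be assigned to it, so this limit holds for counting error alone and the 0 is given as listed. Its 8 annotated pseudogenes also had 0 counts.

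KRT10 (ENSG00000186395, chromosome 17, 40818117 to 40822595), a type I keratin of cells that have left the basal layer, was the most abundant member after the trio of simple keratins, at 6.12, 6.37 and 6.4 TPM under PBS and 5.99, 6.29 and 6.68 TPM under cisplatin. These values overlapped throughout (log2 fold change 0.10, 95% interval -0.17 to 0.38, edgeR adjusted p = 0.553). The gene on the opposite strand, KRT10-AS1, shares 2.61% of the exonic bases of KRT10 and was higher under cisplatin, at 31.5 against 21.1 CPM (a log2 difference of 0.60 with an adjusted p of 0.00224 in edgeR, and 0.38 with the length trend removed). Its part in the counts of KRT10 was not tested.

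KRT74 (ENSG00000170484, chromosome 12, 52565782 to 52573825), a type II keratin of the hair follicle, had 22, 33 and 23 counts under PBS and 47, 45 and 74 under cisplatin. That was 2.46, 2.17 and 1.6 CPM against 4.68, 4.01 and 4.45 CPM, with no overlap. The fold change was 2.14 (95% interval 1.55 to 2.96, edgeR adjusted p = 0.00196), but limma did not call it on log2(TPM + 1) (log2 change 0.56, adjusted p = 0.0764) or on log2(TPM + 0.1) (0.94, adjusted p = 0.0797). Of 3863 tested genes with a mean under 5 CPM, 17% were called higher. KRT80 (ENSG00000167767), a type II keratin of many epithelia, had 5 counts in each PBS library and 4, 7 and 10 under cisplatin, under the filter. The unfiltered edgeR fit gave it a log2 fold change of 0.47 (95% interval -0.71 to 1.64, adjusted p = 0.610).

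**Figure D3:**
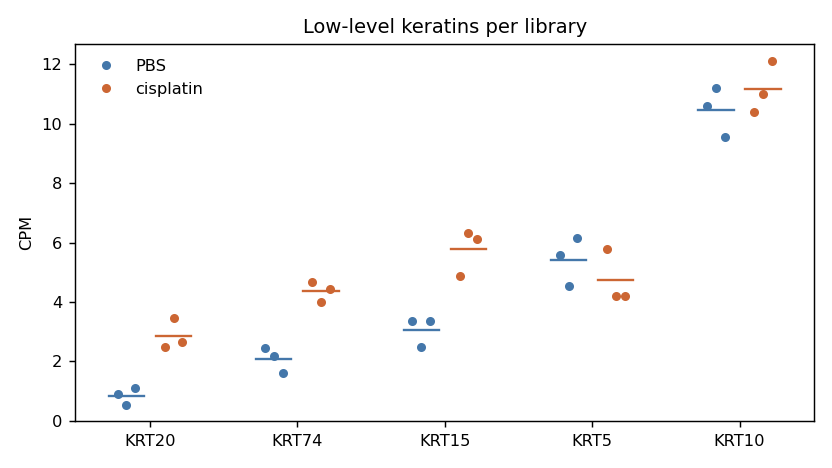
CPM per library of the low-level keratins KRT20, KRT74 and KRT15 and of KRT5 and KRT10, PBS in blue and cisplatin in orange, with a line at each mean. In the first 3 genes all cisplatin points lie above all PBS points, whereas KRT5 and KRT10 overlap.

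Promoter sequences were at hand for 5 members, and those of the called low-level KRT20 and KRT74 and of the uncalled KRT5 and KRT10 are shown for comparison, as the 100 bases before the RefSeq start on GRCh38.p14, 5′ to 3′ on the gene's strand. Capitals mark ATAAA, a short A/T-rich element searched for on the gene's strand from 20 to 40 bases before the start after the sequences had been read.
KRT20 (chr17:40885243-40885342, minus strand): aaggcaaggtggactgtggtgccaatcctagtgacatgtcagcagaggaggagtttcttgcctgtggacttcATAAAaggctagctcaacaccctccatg
KRT74 (chr12:52573844-52573943, minus strand): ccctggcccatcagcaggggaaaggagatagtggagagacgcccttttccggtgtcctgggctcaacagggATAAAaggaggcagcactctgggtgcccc
KRT5 (chr12:52520395-52520494, minus strand): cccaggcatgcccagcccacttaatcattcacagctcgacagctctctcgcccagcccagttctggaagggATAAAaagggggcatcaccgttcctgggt
KRT10 (chr17:40822615-40822714, minus strand): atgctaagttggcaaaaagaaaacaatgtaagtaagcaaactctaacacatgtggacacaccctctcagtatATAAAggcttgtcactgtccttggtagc
ATAAA starts 28 or 29 bases before the start in all 4, called and uncalled alike, and a start at 28 or 29 bases is found in 1.98% of 35116 promoters in the table. Over the whole window of 20 to 40 bases the share is 4.65%. The window was chosen with these sequences in view. The full TATA box TATAAA, searched on both strands over 250 bases, was in KRT10 alone among the 5 and in 10.7% of all promoters, some of its matches being ATAAA matches too. The AP-1 motif TGANTCA (6.57% of promoters) and the GC box GGGCGG (42.6%) had no match in the 5 members. The table's start for KRT8, counted among the 5, lies 23485 bases from the start of that gene in GENCODE 29. Its motif results may therefore not describe the promoter in use, and its sequence is not shown. For KRT5 the distance is 293 bases.

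Summed over the 5 simple keratins, mRNA stood at 1715, 1590 and 1783 TPM in the PBS libraries and at 2008, 1974 and 2034 TPM in the cisplatin libraries. The sum of KRT5 and KRT17, all of it KRT5, was 3.06, 2.71 and 4.20 TPM against 3.17, 2.67 and 2.61 TPM. The simple to basal ratio per library was thus 560, 587 and 425 under PBS and 633, 739 and 779 under cisplatin. On TPM the groups did not overlap, but on CPM they did, with 354, 408 and 288 against 402, 549 and 587. The ratio rests on the 47 to 88 counts of KRT5 per library and on which keratins count as basal. With KRT14 and KRT15, type I partners of KRT5, on the basal side, a choice made after seeing the data, it was 314, 309 and 245 under PBS and 259, 198 and 252 under cisplatin, which overlap, with the lower mean under cisplatin. Those values are in TPM, where the direction of the ratio thus turned with that choice. In CPM the widened ratio was 221, 263 and 185 under PBS and 214, 213 and 232 under cisplatin. These groups overlap, with means of 223 and 220. The widened basal sum itself was 5.47, 5.14 and 7.29 TPM under PBS and 7.75, 9.95 and 8.07 TPM under cisplatin. In CPM that sum was 8.93, 7.04 and 9.55 against 10.9, 10.8 and 10.6, so it was higher under cisplatin in both units. KRT14 had 0, 0 and 1 counts under PBS and 2, 3 and 5 under cisplatin, so KRT15 made up most of what was added to KRT5. Whether the simple keratins changed more than KRT5 was not tested.

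Filaments need both types, and the balance between them moved little. The summed type II to type I ratio was 0.674, 0.673 and 0.701 in TPM under PBS and 0.764, 0.681 and 0.746 under cisplatin, with overlapping groups. KRT8 to KRT18 ratios were 1.28, 1.31 and 1.31 under PBS. Under cisplatin they were 1.50, 1.28 and 1.46, so replicate 2 lay with the PBS libraries and the other cisplatin libraries above them. In that library KRT18 was highest and KRT8 lowest of the cisplatin group.

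**Figure D4:**
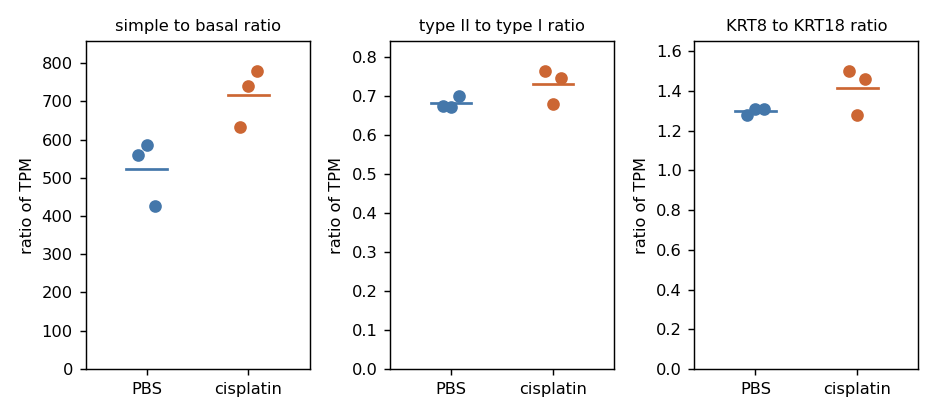
Ratios of TPM per library, with a line at the mean of 3: simple (KRT7, KRT8, KRT18, KRT19, KRT20) to basal (KRT5, KRT17) keratins, type II to type I members, and KRT8 to KRT18. The simple to basal ratio lies between 425 and 587 under PBS and between 633 and 779 under cisplatin. Where KRT14 and KRT15 count as basal it turns direction in TPM, while in CPM its means are 223 and 220. The other ratios overlap between groups.

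KRT8 and KRT18 have many processed pseudogenes, copies of their mRNA reinserted in the genome, and reads could be divided among them. Of 51 annotated KRT8 pseudogenes 25 had a count, and together they took 1.56% to 1.81% of the KRT8 family's counts under PBS and 0.972% to 1.15% under cisplatin. For KRT18, 27 of 67 had a count, with 0.535% to 0.802% under PBS and 0.280% to 0.316% under cisplatin. The pseudogene share was lower in every cisplatin library. For KRT18 the most abundant copy, KRT18P5, had 7, 14 and 10 counts under PBS and 5, 10 and 7 under cisplatin, under the filter. Adding pseudogenes to their parents changed the log2 fold changes little, to 0.38 for KRT8 and 0.27 for KRT18 in edgeR (adjusted p = 0.0022 and 0.0132). The most abundant copy, KRT8P12 (chromosome 3, 160565447 to 160569248), had 10.6 ± 1.49 CPM in the PBS group against 8.96 ± 0.507 in the cisplatin group (SD, n = 3), which did not pass (log2 fold change -0.24 and adjusted p = 0.204 in edgeR). Its transcript is 90.5% identical to the KRT8 coding sequence over 1385 aligned bases, with a longest identical run of 53 bases. A stretch of 60 bases with 6 mismatches, the median number over all such stretches, shows how far a read could tell the parent from its copy, with capitals at the mismatched bases.
KRT8 (chr12:52904912-52904971, minus strand): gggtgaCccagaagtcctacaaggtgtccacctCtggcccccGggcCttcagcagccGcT
KRT8P12 (aligned stretch of its transcript): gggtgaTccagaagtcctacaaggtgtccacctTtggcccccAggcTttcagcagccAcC

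Of 45 other functional keratin genes, 3 passed the filter and 33 had at most 3 counts in every library. KRT15, a type I keratin of basal cells of stratified epithelia and a partner of KRT5, had 30, 38 and 48 counts under PBS and 49, 71 and 102 under cisplatin, or 3.35, 2.50 and 3.35 CPM against 4.88, 6.32 and 6.13 CPM. The groups were apart, with a fold change of 1.91 (95% interval 1.43 to 2.56, edgeR adjusted p = 0.00271). KRT5 was thus not called and KRT15 rose, and the difference between them was not tested. KRT6A, a keratin of wounded and activated epidermis (log2 fold change 0.25, edgeR adjusted p = 0.449), and KRT23 (0.20, adjusted p = 0.503) did not pass. The TPM of KRT6A in PBS replicate 1, 36.3 against 0.95 to 1.47 elsewhere, comes from 15 counts and a deposited transcript length of 275 bases, where the other libraries have 2085 to 2308.

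Genes that keratin filaments work with moved in both directions. So did genes at large: of all those tested, 18.9% were called higher and 19.3% lower, the shares to set beside each list below. Of 11 tested desmosome genes of 16 listed, 3 rose and 2 fell. Plakoglobin JUP rose by 0.55 on the log2 scale (edgeR adjusted p = 1.3e-04), while desmoplakin DSP, which ties keratin filaments to the desmosome, fell by 0.61 (adjusted p = 5.5e-05). With the length trend removed the value for DSP was -0.26 (adjusted p = 0.00431 in edgeR). The list's median log2 fold change was 0.06, that of all genes tested near 0 (-0.000347). Periplakin PPL (0.46), the membrane protein PERP (0.43) and desmoglein DSG2 (-0.31) also passed. PERP was not called by edgeR without PBS replicate 1 (adjusted p = 0.105), PBS replicate 3 (0.0945) or cisplatin replicate 2 (0.112), and DSG2 lost its call once the length trend was removed (0.435). On both TPM scales PPL, PERP and DSG2 were not called by limma, while removing the length trend brought PPL to 0.71.

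All 9 hemidesmosome genes, which anchor keratin to the basement membrane, were tested, and 5 rose and 1 fell, with a median of 0.39. The laminin chain LAMB3 averaged 0.371 CPM with PBS against 1.83 with cisplatin (a log2 difference of 2.22, adjusted p = 9.8e-04 in edgeR), and integrin ITGB4 rose by 0.55 on the log2 scale. LAMB3, at 2 to 9 counts under PBS, passed the filter through the cisplatin libraries, and without PBS replicate 3 its log2 difference was 2.84. Dystonin DST, a linker of keratin to the hemidesmosome, fell by 0.39, a call lost in edgeR once the length trend was removed (-0.15, adjusted p = 0.203) and in limma on TPM.

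Among 16 other intermediate filament genes, 9 were tested, 2 rose and 3 fell, with a median of -0.15. Vimentin VIM, the filament of mesenchymal cells, averaged 225 ± 3.88 CPM (SD, n = 3) in the PBS group against 374 in the cisplatin group (log2 fold change 0.73 and adjusted p = 1.6e-05 in edgeR). The nuclear lamin LMNA rose by 0.42, and LMNB1 fell by 0.54, LMNB2 by 0.31 and the neurofilament NEFL by 0.33. With the length trend removed, or without cisplatin replicate 2, edgeR did not call LMNB2 (adjusted p = 0.202 and 0.0788), and limma called neither lamin LMNA nor LMNB2 on TPM. Of 14 keratin partners, all tested, 2 rose and 3 fell, with a median of 0.05. The chaperone HSPB1 rose by 0.67 (0.43 with the length trend removed) and the adaptor TRADD, which binds KRT18, by 0.53, while PNN (-0.45), the keratin-binding TCHP (-0.56) and the 14-3-3 protein YWHAH (-0.28) were lower. TRADD was not called by DESeq2 (adjusted p = 0.0543) or by edgeR without cisplatin replicate 3 (0.0506), nor YWHAH by edgeR without cisplatin replicate 2 (0.0597), and limma called neither on TPM.

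Of 28 transcription factors known to act on keratin or epithelial genes, 19 were tested, 2 rose and 8 fell, with a median of -0.14. The epithelial factor ELF3 averaged 35.1 ± 1.03 CPM (SD, n = 3) with PBS against 60.3 with cisplatin (log2 fold change 0.77 and adjusted p = 5.4e-05 in edgeR) and the lung factor NKX2-1 rose by 0.81 from 4.07 CPM, a call that limma did not make on TPM. TFAP2A, an activator of epidermal keratin genes, fell by 0.75, SP1 by 0.51 and JUN by 0.62. Removing the length trend brought SP1 to -0.21 (adjusted p = 0.0267 in edgeR). Of 10 general epithelial markers 9 were tested, and 5 of 9 tested rose and 0 fell, among them E-cadherin CDH1 (0.67) and the protease ST14 (0.50), but EPCAM did not pass (-0.12, edgeR adjusted p = 0.194). Summed, the 10 stood at 786 to 976 TPM under PBS and 813 to 871 TPM under cisplatin, and their part in the keratin differences was not tested. For VIM, NEFL, TCHP, NKX2-1 and TFAP2A, 10% or more of the exonic bases also belong to another annotated gene, which makes their counts less certain.

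The genes whose course over the 6 libraries was most like that of KRT8, by the root-mean-square difference of centred log2 CPM among 11030 genes, were LINC00623 (0.0278), ARTN (0.0298) and BABAM1 (0.0337). For KRT18 they were VPS37B (0.0213), TALDO1 (0.0268) and MRPS16 (0.0285). By the same measure KRT19 stood 90th from KRT8 and KRT18, the filament partner of KRT8, 441st, at 0.0926 against a median of 0.252 over all candidates. Of the 6 genes named here limma called none on TPM, edgeR did not call TALDO1 without cisplatin replicate 2 (adjusted p = 0.0669) or VPS37B without PBS replicate 3 (0.0536), and removing the length trend ended the calls of LINC00623 and TALDO1.

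**Figure D5:**
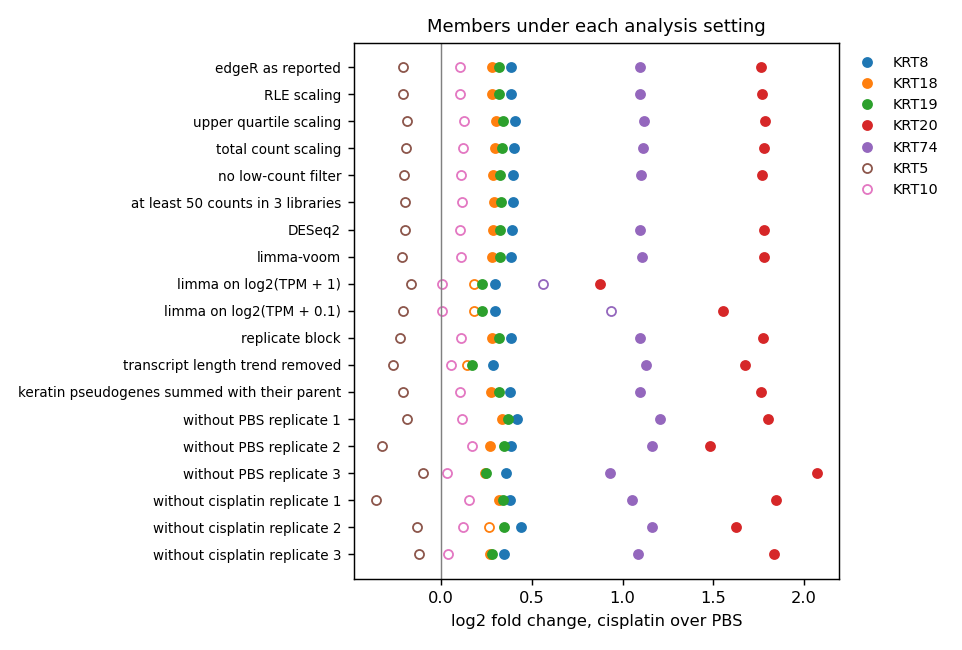
Log2 fold change of the 7 tested members (colours) under the reported fit and 18 alternative settings, 1 per line; filled points passed an adjusted p of 0.05 in that setting. KRT8 and KRT19 are filled on every line, KRT18 is open on 4, KRT74 is open on the 2 TPM lines, and KRT5 and KRT10 are open throughout; KRT20 and KRT74 have no point under the filter of 50 counts.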

How the data were processed

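Libraries of total RNA from 3 PBS and 3 cisplatin samples were analysed, 1 table per sample. Per the file headers, the authors deposited an expected count for every gene (an estimate that can be fractional, not normalized), TPM (scaled per length and to a fixed total) and transcript lengths in bases. STAR 2.7.9 and GRCh38 (hg38) are named in the submitters' processing notes. For the annotation release, strand setting and quantifier: not given in the sources used here. The FPKM values that the authors deposited were not used.

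Counts were rounded and fitted with edgeR 4.0.16 (R 4.3.3): filterByExpr with a minimum count of 10 and total of 15, TMM scaling, the quasi-likelihood test on group alone, and Benjamini-Hochberg adjustment over 15063 genes. SE is the log2 fold change over the square root of F. Totals of 9121180 to 16724285 set the precision, and floors cover counting error only. Symbols matched for 61399 of 61552 genes, and positions came from GENCODE 29. Sequences were aligned with MAFFT 7.526 and Biopython 1.88. Promoters are from RefSeq (GRCh38.p14), with 5 of 10 members matched.

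The members and lists were chosen with earlier results of these data known. Named genes were all members, the 3 most abundant other keratins, up to 3 called genes per list and direction, and the 3 nearest in course to KRT8 and KRT18 (mean of at least 5 CPM, log2(CPM + 0.5)). On simulated counts for this comparison (14785 genes, 200 changed) the fit recovered 58% of genes changed 1.5-fold and 84% at 2-fold, and 8.05% of calls were false. The simulation changed a smaller share of genes than the 38.2% called here, and no rise in it was smaller than 1.5-fold. Its rates therefore need not hold for the reported fit. No libraries were duplicates: chi-square per degree of freedom within groups ran from 2.99 to 20.6. Alternatives were other scalings and filters, DESeq2 1.42.0, limma 3.58.1 (voom and log2 TPM), a replicate block, a transcript length correction, pseudogene sums and leaving out each library. One gene that the naming rule selects and 1 set of sequences are not reported here.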

Additional observations from a re-analysis of the deposited data

How the results depend on the processing

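Over all genes 5752 were called, and 2324 and 2425 with limma on log2(TPM + 1) and log2(TPM + 0.1). Called members numbered 5, but 3 on each TPM scale and 3 with at least 50 counts in 3 libraries, a filter that removes KRT20 and KRT74 from the test. In the lists of other keratins, filaments, junctions, partners and regulators, marker lists left out, 15 genes were higher and 17 lower, but 7 and 9 on both TPM scales, where the cause was not tested. KRT6A, not called in any setting, reversed there to -1.325 and -1.546, with the short deposited length in PBS replicate 1. CPM in place of TPM gave simple to basal ratios of 350 (PBS) and 513 (cisplatin) in place of 524 and 717. With KRT14 and KRT15 counted as basal, an alternative chosen after seeing the data, TPM gave 289 and 236 and CPM 223 and 220. CPM also gave sums of KRT8, KRT18 and KRT19 of 1864 and 2360 in place of 1695 and 2002, since CPM is not per length. Leaving out 1 library gave 4205 to 5283 called genes and 4 or 5 called members. Of 747 single-gene results under the alternatives, 695 kept direction and side of the threshold, 50 lost their call and 2 reversed. With the replicate number as a block edgeR called 5819 genes and the same number of members, 5. Same-numbered libraries correlated at 0.0658, 0.123 and -0.076 in their deviations, and differently numbered ones at -0.188 to 0.13. With 3 libraries per group, values this weak cannot settle whether the numbers pair the samples. TPM moved the median of all genes by -0.0793 and -0.0879 (log2). At 4 to 88 counts per library, KRT5, KRT7, KRT20, KRT74 and KRT80 are limited by depth.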
